A study of Homo sapiens with 14 samples.

Results

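The genes described here are 10 histone deacetylase genes, HDAC1 to HDAC9 and HDAC11. They were taken by name from the 19410 genes of the deposited RNA-Seq table, and all 10 were found. Of these, 4 belong to class I (HDAC1, HDAC2, HDAC3, and HDAC8), 4 to class IIa (HDAC4, HDAC5, HDAC7, and HDAC9), 1 to class IIb (HDAC6), and 1 to class IV (HDAC11). All 10 were above the filter on low values in every library, with 3.11 TPM (transcript abundance scaled to transcript length and library total) as the lowest value of any of them.

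The samples were MDA-MB-231, an established triple-negative breast cancer cell line, in its parental form and as 6 lines edited with CRISPR/Cas9. SAP30-KO1 and SAP30-KO2 were made with different guide RNAs against SAP30, though the listed guides overlap in most of their sequence. SIN3A+SIN3B-DKO1 and SIN3A+SIN3B-DKO2 were made with guides against both SIN3A and SIN3B, and the study lists only a single guide for each gene. MLL1-KO1 and MLL1-KO2 were made with different guides against MLL1. Whether lines of a genotype share off-target edits was not tested. The library titles name no treatment, and each of the 7 conditions had 2 libraries, 14 in all. According to the study's methods, cells given guides were selected with puromycin. Several single knockout cells were then expanded and mixed for each line, so each line is a pool of clones. The control is labelled parental, and no selection or cloning is described for it. Both steps thus go with the edit in all 6 lines, and their part in shared differences from parental was not tested. The labels do not say whether the 2 libraries of a line came from separate cultures, so the p-values below measure only the spread between these libraries. The 2 libraries of SIN3A+SIN3B-DKO2 stood further apart than those of any other condition, with a chi-square of the recovered reads over genes of 7.66 per degree of freedom against 1.46 to 3.65 elsewhere.

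Histone deacetylases remove acetyl groups from lysines of histones and other proteins. HDAC1 and HDAC2 are the catalytic subunits of the SIN3, NuRD, CoREST, and MiDAC corepressor complexes, and HDAC3 serves the NCoR/SMRT complexes, whereas HDAC8 is known for acting on cohesin. Class IIa enzymes have weak catalytic activity of their own, bind MEF2 transcription factors, and shuttle between nucleus and cytoplasm with 14-3-3 proteins. HDAC6 is a cytoplasmic tubulin deacetylase, and HDAC11 removes fatty acyl groups. SAP30 and the scaffolds SIN3A and SIN3B belong to the SIN3 complex that carries HDAC1 and HDAC2, and MLL1 is a histone H3 lysine 4 methyltransferase. The comparisons below ask how the RNA of the deacetylases themselves stood in cells edited for these genes.

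The libraries held from 18415036 to 23162682 reads, a depth worked out from the smallest step between values of each gene. SAP30 RNA was between 2.75 and 4.96 TPM in the 4 SAP30-KO libraries and between 66.1 and 109.6 TPM in the others. MLL1, listed as MLL in the table, was at 56.7 and 49 TPM in parental cells and between 15.8 and 27.7 TPM in the MLL1-KO libraries, but it was also between 23 and 35.4 TPM in the SAP30-KO libraries. SIN3B RNA was between 43.5 and 50.2 TPM in the SIN3A+SIN3B-DKO libraries and at least 63.5 TPM elsewhere. SIN3A RNA was higher in the SIN3A+SIN3B-DKO libraries, from 55.1 to 62.5 TPM, than in any other library, where it reached at most 49.2 TPM. SIN3A RNA therefore does not check that label, and SIN3A+SIN3B-DKO stands here for the libraries labelled so. Markers of a mesenchymal breast cancer line were present in every library (8 of 8, with VIM from 5741 to 8805 TPM). Among 8 luminal and hormone receptor markers, ESR1, PGR, and FOXA1 did not exceed 0.191 TPM, whereas KRT19 ranged from 109 to 444 TPM and ERBB2 from 21.9 to 42.8 TPM. Among leukocyte markers, CD3E did not exceed 0.0802 TPM, PTPRC 0.603 TPM, and CD14 3.98 TPM.

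TPM are scaled to transcript length, but the annotation that gave the lengths is not stated. Comparisons of levels between genes rest on those lengths. Parental HDAC2, for example, had more recovered reads (4974 and 4810) than parental HDAC1 (2929 and 2993) but fewer TPM. In parental cells HDAC1 was the highest of the 10, with 195 and 204 TPM in the 2 libraries. HDAC3 followed with 125 and 119 TPM and HDAC2 with 99.8 and 99.1 TPM. HDAC7 was the highest class IIa gene, at 43.9 and 42 TPM. HDAC8 was at 25.8 and 26.3 TPM, HDAC6 at 25 and 24.5 TPM, and HDAC5 at 18 and 15.7 TPM. The lowest were HDAC9 at 11.9 and 11.2 TPM, HDAC11 at 11.1 and 9.47 TPM, and HDAC4 at 7.92 and 7.79 TPM. No neighbours in this order overlapped between the parental libraries. The order changed at its top only in MLL1-KO2, where HDAC3 (136 and 142 TPM) and HDAC1 (134 and 137 TPM) overlapped. HDAC4 was the lowest of the 10 in all 7 conditions. HDAC11 stood above HDAC9 in both SAP30-KO lines and below it in the other 5 conditions.

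**Figure D1:**
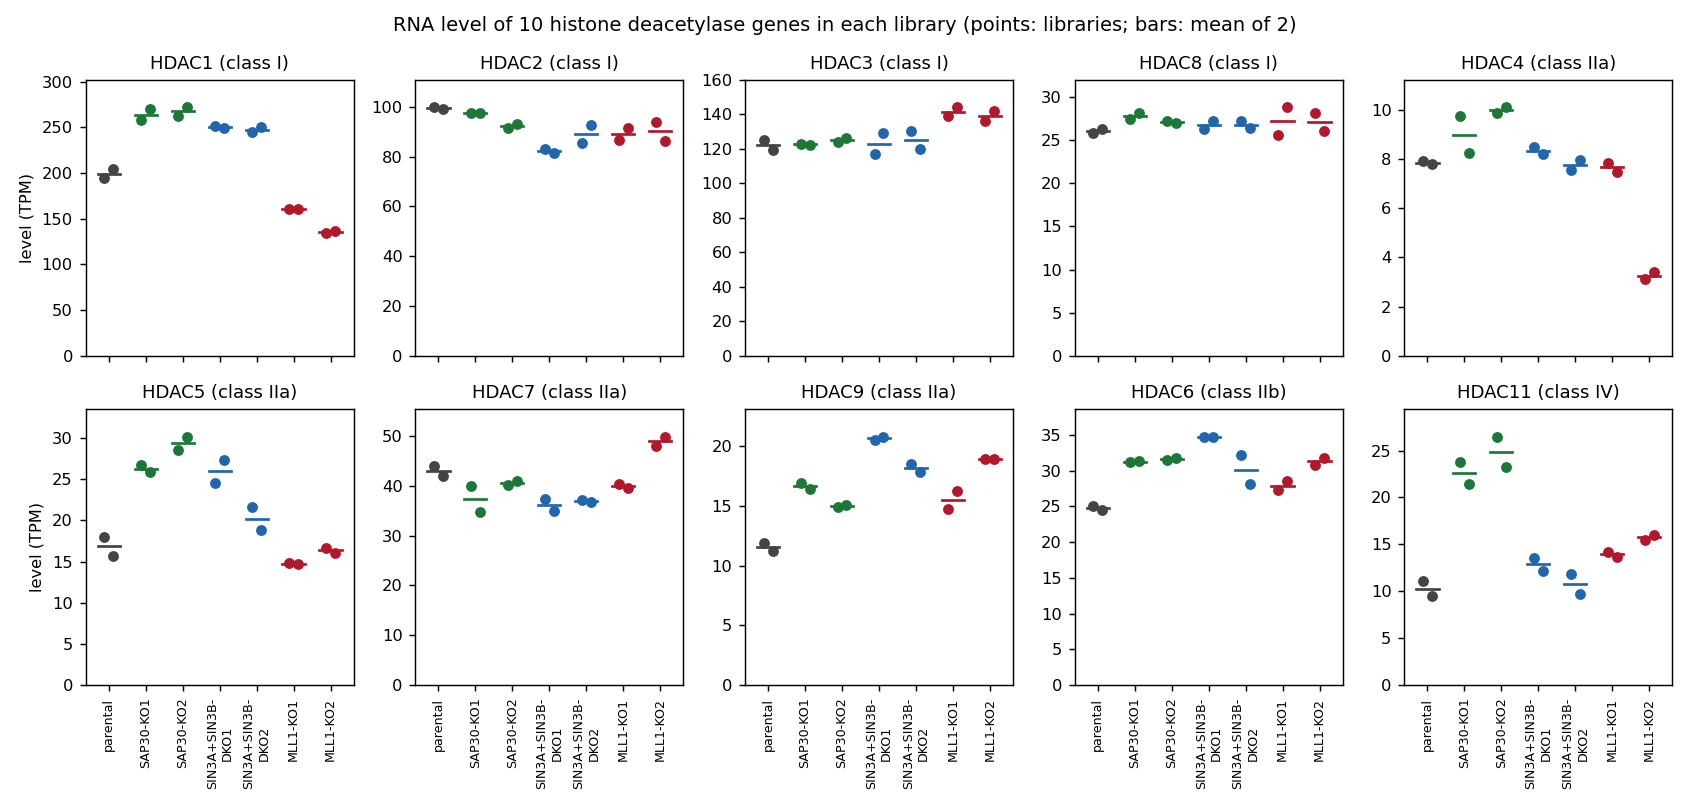
RNA level in TPM (vertical axis, from 0) of each gene in each of the 14 libraries, by condition (horizontal axis). Points are libraries and bars the mean of 2; HDAC1 was above parental in the SAP30-KO and SIN3A+SIN3B-DKO lines and below it in the MLL1-KO lines, and HDAC4 stood at 3.11 and 3.41 TPM in MLL1-KO2.

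Parental cells, with 2 libraries, served as the common control of all 6 lines in 1 limma fit over all 14 libraries and 13540 genes, on log2(TPM + 0.5), a scale on which fold changes of weakly expressed genes come out too small. A gene passed the test with a Benjamini-Hochberg adjusted p under 0.05 over all genes tested, and it was called when it also changed at least 1.5-fold. The fit pools the spread over conditions. With only SIN3A+SIN3B-DKO2 and parental fitted, the genes that passed in SIN3A+SIN3B-DKO2 fell from 6714 to 4430. HDAC2 (adjusted p = 0.095), HDAC5 (0.16), and HDAC6 (0.077) no longer passed in that line. The same kind of fit ended the passes of HDAC7 in SAP30-KO1 (adjusted p = 0.11), HDAC11 in SIN3A+SIN3B-DKO1 (0.074), HDAC2 in MLL1-KO2 (0.06), and HDAC5 between the SIN3A+SIN3B-DKO lines (0.22), and HDAC2 passed in SAP30-KO2 (0.033). Of the 10 genes, 2 were called in SAP30-KO1, where 15.7% of all genes tested were called, and 2 in SAP30-KO2, where 15.6% were. In SIN3A+SIN3B-DKO1, 2 were called against 16.4% of all genes, and in SIN3A+SIN3B-DKO2, 1 against 13.6%. In MLL1-KO1 none was called, against 23.2% of all genes, although 6 of the 10 passed the test, and in MLL1-KO2, 3 were called against 25.2%. These numbers are close to the background of each line, and in MLL1-KO1 below it, so the deacetylases did not stand out from other genes by how many of them were called. Of the genes called, all but HDAC4 in MLL1-KO2 were higher than in parental.

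Without the fold minimum, 5 of the 10 genes passed the test as higher and 1 as lower in SAP30-KO1, and 6 as higher and 0 as lower in SAP30-KO2, where 51% and 51.7% of all genes passed. In SIN3A+SIN3B-DKO1, 5 were higher and 2 lower (56% of all genes passed), and in SIN3A+SIN3B-DKO2, 4 were higher and 2 lower (49.6%). In MLL1-KO1, 4 were higher and 2 lower (60.5%), and in MLL1-KO2, 5 were higher and 3 lower (64.2%). By direction, 28.1%, 26.9%, 27.8%, 25.7%, 21.8%, and 28% of all genes passed as higher in the 6 lines in this order, and 22.9%, 24.8%, 28.2%, 23.9%, 38.7%, and 36.2% as lower. The median log2 fold change of the 10 genes was 0.25 and 0.34 in the SAP30-KO lines, 0.20 and 0.05 in the SIN3A+SIN3B-DKO lines, and 0.01 and 0.12 in the MLL1-KO lines. The median over all genes tested was between -0.09 and 0.03. Quantile normalization moved that median by 0.13 in MLL1-KO1, from -0.09 to 0.04, and lower genes then made up 51.6% of all genes called in MLL1-KO1 in place of 70.3%, and 48.4% in MLL1-KO2 in place of 59.3%.

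**Figure D2:**
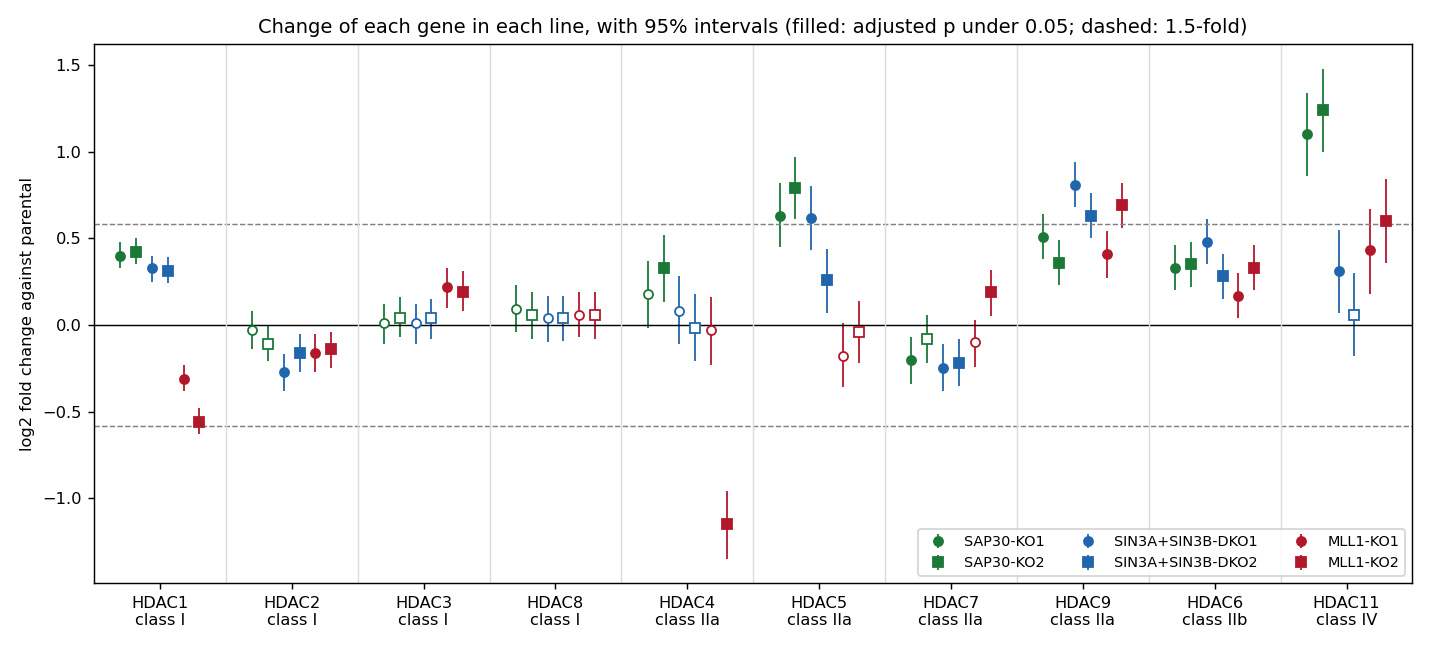
Log2 fold change against parental (vertical axis) of each gene (horizontal axis) in each of the 6 lines, with 95% intervals from limma. Filled points passed the test and dashed lines mark 1.5-fold; HDAC8 was unfilled in all 6 lines, and HDAC9 and HDAC6 were filled and above 0 in all 6.

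HDAC1 RNA rose in the SAP30-KO and SIN3A+SIN3B-DKO lines and fell in the MLL1-KO lines. HDAC1 (chr1:32757684-32799236, plus strand, GRCh37) had the higher level in TPM of the paired SIN3 deacetylase genes, HDAC1 and HDAC2. HDAC1 measured 258 and 270.0 TPM in SAP30-KO1 and 263 and 272 TPM in SAP30-KO2. In SIN3A+SIN3B-DKO1 it was at 252 and 249.7 TPM, and in SIN3A+SIN3B-DKO2 at 245 and 250.3 TPM. In MLL1-KO1 both libraries were at 161 TPM, and those of MLL1-KO2 were at 134 and 137 TPM. All 8 libraries of the first 4 lines therefore lay above both parental libraries, and all 4 MLL1-KO libraries below both. HDAC1 was 1.32-fold and 1.34-fold higher in the SAP30-KO lines, and 1.26-fold and 1.24-fold higher in the SIN3A+SIN3B-DKO lines. It was at 0.808 times the parental level in MLL1-KO1 and at 0.679 times in MLL1-KO2 (log2 fold changes of -0.31 and -0.56, standard error 0.03). The adjusted p ranged from 1.1e-07 to 2.6e-05 over the 6 lines. No change reached 1.5-fold, although HDAC1 was called in MLL1-KO2 with parental replicate 1 left out (log2 fold change of -0.59). In these bulk samples a lower level can come from fewer cells with the transcript or from less of it per cell, which cannot be told apart. The annotation holds processed pseudogenes of HDAC1, HDAC1P1 and HDAC1P2, and how reads shared with them were counted is not given in the sources used here.

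The promoters of HDAC1 and HDAC2 are shown because these paralogs serve the same complexes while the ratio of their RNA levels differed between conditions. Each is the 250 bases before the first annotated start in RefSeq, read on the gene's strand on the build GRCh38.p14, which differs from the hg19 build that the submitters' processing notes name. Capitals mark matches on either strand to the GC box, spelled GGGCGG, or to the CCAAT box, and neighbouring matches can share bases. The E box, spelled CACGTG, was searched as well.
HDAC1 (chr1:32291833-32292082, plus strand): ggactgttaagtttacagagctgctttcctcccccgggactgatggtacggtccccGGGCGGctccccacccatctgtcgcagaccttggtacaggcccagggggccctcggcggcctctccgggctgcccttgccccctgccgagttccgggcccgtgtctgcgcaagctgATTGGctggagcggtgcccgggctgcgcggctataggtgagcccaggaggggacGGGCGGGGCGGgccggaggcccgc
HDAC2 (chr6:113971149-113971398, minus strand): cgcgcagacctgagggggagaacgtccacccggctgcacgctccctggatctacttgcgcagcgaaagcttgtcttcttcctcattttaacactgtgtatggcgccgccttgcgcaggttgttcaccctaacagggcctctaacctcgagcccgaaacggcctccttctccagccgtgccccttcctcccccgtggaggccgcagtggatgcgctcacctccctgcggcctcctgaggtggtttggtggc
The HDAC1 window held 3 GC box matches and 1 CCAAT match, and the HDAC2 window held none of the 3 motifs. Of 35116 RefSeq promoters, 42.6% held a GC box, 32% a CCAAT box, and 6.34% an E box in the same 250 bases. Of the 10 genes, 9 matched an entry of the promoter table.

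HDAC2 RNA was lower than in parental in every edited library. HDAC2 (chr6:114254192-114332472, minus strand) measured 99.8 and 99.1 TPM in parental cells. The nearest edited libraries were those of SAP30-KO1 at 97.7 and 97.4 TPM, and SAP30-KO2 was at 91.4 and 93.3 TPM. The lowest were those of SIN3A+SIN3B-DKO1 at 82.9 and 81.4 TPM, while SIN3A+SIN3B-DKO2 had 85.3 and 92.6 TPM. MLL1-KO1 had 86.5 and 91.4 TPM and MLL1-KO2 93.8 and 86.4 TPM. All 12 edited libraries lay below both parental libraries, yet the differences were small. In SIN3A+SIN3B-DKO1 HDAC2 fell to 0.827 times the parental level (log2 fold change of -0.27, standard error 0.05, adjusted p = 0.00072). It also passed the test in SIN3A+SIN3B-DKO2 (-0.16, adjusted p = 0.018), MLL1-KO1 (-0.16, adjusted p = 0.015), and MLL1-KO2 (-0.14, adjusted p = 0.024), but not in SAP30-KO1 (-0.03) or SAP30-KO2 (-0.11, adjusted p = 0.091). The last 3 of these 4 passes were each lost when single libraries were left out, with an adjusted p of 0.06 without parental replicate 2 and 0.13 without SIN3A+SIN3B-DKO2 replicate 1 in SIN3A+SIN3B-DKO2. They were likewise lost without MLL1-KO1 replicate 1 in MLL1-KO1 (adjusted p = 0.11), without MLL1-KO2 replicate 2 in MLL1-KO2 (adjusted p = 0.21), and without parental replicate 1 in each of the 3 lines (0.075, 0.063, and 0.088). In MLL1-KO2 the pass was also lost without parental replicate 2 (adjusted p = 0.069), and both MLL1-KO passes were lost with quantile normalization (-0.09 and -0.10) and median ratio scaling (-0.06 and -0.09). None of the 4 passes as lower held once the median of the neighbouring genes on chromosome 6 was subtracted (described further on). HDAC2 was then at -0.11 in SIN3A+SIN3B-DKO1 (adjusted p = 0.074) and -0.07 in SIN3A+SIN3B-DKO2 (adjusted p = 0.27), and on the other side of 0 in MLL1-KO1 (0.10, adjusted p = 0.092) and MLL1-KO2 (0.13, adjusted p = 0.036).

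The HDAC1 level divided by the HDAC2 level was 1.95 and 2.06 in the parental libraries. It lay between 2.64 and 2.91 in the 4 SAP30-KO libraries and between 2.7 and 3.07 in the 4 SIN3A+SIN3B-DKO libraries. In MLL1-KO1 it was 1.87 and 1.76, and in MLL1-KO2 1.42 and 1.59, so that the MLL1-KO libraries lay below parental and the other edited libraries above it. The summed level of the pair was 299 ± 6.25 TPM in parental (SD, n = 2), 361 ± 8.41 in SAP30-KO1, 333 ± 2.46 in SIN3A+SIN3B-DKO1, and 225 ± 2.83 in MLL1-KO2. HDAC1 alone made up between 66.1% and 67.3% of that sum in parental libraries and between 58.8% and 61.3% in MLL1-KO2.

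HDAC3 and HDAC8, the other class I genes, varied little in level. HDAC3 (chr5:141000443-141016416, minus strand), the NCoR/SMRT deacetylase, measured 139 and 144 TPM in MLL1-KO1 and 136 and 142 TPM in MLL1-KO2, against 125 and 119 TPM in parental. It rose 1.16-fold in MLL1-KO1 (log2 fold change of 0.22, standard error 0.05, adjusted p = 0.0041) and 1.14-fold in MLL1-KO2 (0.19, adjusted p = 0.0077). The second of these was lost without parental replicate 2 (adjusted p = 0.062) and without MLL1-KO2 replicate 2 (adjusted p = 0.059). In the other 4 lines HDAC3 lay between 117 and 130.2 TPM, overlapped parental, and had log2 fold changes from 0.01 to 0.04. In these lines HDAC3 itself did not pass. The 51 tested genes centred on it had medians of 0.20 and 0.19 in the SAP30-KO lines. In the SIN3A+SIN3B-DKO lines the medians were -0.16 and -0.22. These genes spanned chr5:140624963-148442726, so those before HDAC3 lay much closer together than those after it. Whether a dense cluster of genes set the median was not tested. With the neighbours' median subtracted, HDAC3 passed as lower in the SAP30-KO lines (-0.20 and -0.11, adjusted p = 0.0018 and 0.049). It passed as higher in the SIN3A+SIN3B-DKO lines (0.29 in each, adjusted p = 0.0001 and 0.00012). In MLL1-KO2 the pass was lost (-0.07, adjusted p = 0.14), and in MLL1-KO1 it was kept (0.33). HDAC8 (chrX:71549366-71792951, minus strand) was between 25.6 and 28.8 TPM over all 14 libraries. It shares 1193 exon bases with an annotated gene without a symbol on the same strand, for which no level was given. The part of that gene in the HDAC8 reads was not tested. The results for HDAC8 follow. Its log2 fold changes were between 0.04 and 0.09, none passed the test, and the 95% intervals reached from -0.10 to 0.23. With quantile normalization HDAC8 passed in MLL1-KO1 (0.21, adjusted p = 0.018). The neighbours of HDAC8 on the X chromosome had medians from 0.17 to 0.40, with between 11 and 17 of 51 called higher. HDAC8 less its neighbours passed as lower in 5 of the 6 lines, at -0.20 and -0.26 in the SAP30-KO lines (adjusted p = 0.021 and 0.0045), -0.23 and -0.26 in the SIN3A+SIN3B-DKO lines (0.0091 and 0.0051), and -0.21 in MLL1-KO2 (0.01). In MLL1-KO1 it was at -0.08 (adjusted p = 0.3).

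Among class IIa genes, HDAC9 RNA rose in all 6 lines. HDAC9 (chr7:18126572-19042039, plus strand) measured 11.9 and 11.2 TPM in parental cells. It was highest in SIN3A+SIN3B-DKO1 at 20.5 and 20.8 TPM, followed by MLL1-KO2 at 18.9 TPM in both libraries and SIN3A+SIN3B-DKO2 at 18.5 and 17.8 TPM. SAP30-KO1 had 16.9 and 16.4 TPM, MLL1-KO1 14.7 and 16.2 TPM, and SAP30-KO2 14.9 and 15.1 TPM. No edited library overlapped parental. HDAC9 was called in SIN3A+SIN3B-DKO1 (1.76-fold, log2 fold change of 0.81, standard error 0.06, adjusted p = 1.2e-06), in SIN3A+SIN3B-DKO2 (1.55-fold, 0.63, adjusted p = 9.1e-06), and in MLL1-KO2 (1.61-fold, 0.69, adjusted p = 2e-06). In the other 3 lines it passed with log2 fold changes of 0.51 (SAP30-KO1), 0.36 (SAP30-KO2), and 0.41 (MLL1-KO1). With quantile normalization it was also called in MLL1-KO1 (0.59).

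HDAC5 RNA rose in the SAP30-KO and SIN3A+SIN3B-DKO lines. HDAC5 (chr17:42154114-42201070, minus strand) measured 18 and 15.7 TPM in parental cells, 26.7 and 25.9 TPM in SAP30-KO1, and 28.5 and 30.2 TPM in SAP30-KO2. SIN3A+SIN3B-DKO1 had 24.6 and 27.4 TPM and SIN3A+SIN3B-DKO2 21.6 and 18.8 TPM. The MLL1-KO libraries ranged from 14.7 to 16.7 TPM. All 8 libraries of the first 4 lines lay above both parental libraries, whereas MLL1-KO2 overlapped them. HDAC5 was called in SAP30-KO1 (1.55-fold, log2 fold change of 0.63, standard error 0.08, adjusted p = 8.6e-05), SAP30-KO2 (1.73-fold, 0.79, adjusted p = 1.7e-05), and SIN3A+SIN3B-DKO1 (1.53-fold, 0.62, adjusted p = 0.0001). In SIN3A+SIN3B-DKO2 it passed at 0.26 (adjusted p = 0.024). Without parental replicate 2 the changes were below 1.5-fold in SAP30-KO1 (0.54) and SIN3A+SIN3B-DKO1 (0.52), and HDAC5 no longer passed in SIN3A+SIN3B-DKO2 (0.16, adjusted p = 0.2). The call in SIN3A+SIN3B-DKO1 was also lost without its replicate 2 (0.54), and the pass in SIN3A+SIN3B-DKO2 without its replicate 1 (0.16). In the MLL1-KO lines the values were -0.18 and -0.04, and neither passed, although MLL1-KO1 did without parental replicate 2 (-0.27, adjusted p = 0.033).
The exons of HDAC5 share 1826 bases with those of G6PC3, a glucose-6-phosphatase gene on the opposite strand. Whether reads were counted by strand is not given in the sources used here, and without strand the reads of the 2 genes cannot be told apart in the shared bases. G6PC3 measured 74.4 and 71.5 TPM in parental cells, between 107 and 123 TPM in the SAP30-KO libraries, between 90.9 and 106 TPM in the SIN3A+SIN3B-DKO libraries, and between 44.2 and 50.6 TPM in the MLL1-KO libraries. Its part in the HDAC5 values was not tested.

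HDAC4 RNA fell in MLL1-KO2 and was near parental in most other lines. HDAC4 (chr2:239969864-240323348, minus strand) measured 7.92 and 7.79 TPM in parental cells and 3.11 and 3.41 TPM in MLL1-KO2. These were 189 and 220 recovered reads in MLL1-KO2, against 511 and 490 in parental. MLL1-KO1, edited for the same gene, had 7.84 and 7.48 TPM. In MLL1-KO2 HDAC4 was at 0.45 times the parental level (log2 fold change of -1.15, standard error 0.09, adjusted p = 7.4e-07), the only change of at least 2-fold toward lower levels among the 10 genes. In SAP30-KO2 it was at 9.85 and 10.1 TPM and passed as higher (0.33, adjusted p = 0.01), a pass lost without SAP30-KO2 replicate 2 (adjusted p = 0.055). SAP30-KO1 had 9.75 and 8.23 TPM (0.18, adjusted p = 0.12), and passed without its replicate 2 (0.30, adjusted p = 0.029). The SIN3A+SIN3B-DKO libraries ranged from 7.56 to 8.49 TPM.

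HDAC7 (chr12:48176505-48226915, minus strand), at 43.9 and 42 TPM in parental, moved little. It was lower in SAP30-KO1 (39.9 and 34.8 TPM, log2 fold change of -0.20, standard error 0.06, adjusted p = 0.018), SIN3A+SIN3B-DKO1 (37.4 and 35 TPM, -0.25, adjusted p = 0.006), and SIN3A+SIN3B-DKO2 (37.1 and 36.8 TPM, -0.22, adjusted p = 0.014). It was higher in MLL1-KO2 (48 and 49.9 TPM, 0.19, adjusted p = 0.022). Single libraries decided each of these 4 passes. Without parental replicate 1 the adjusted p was 0.11 in SAP30-KO1 and 0.089 in SIN3A+SIN3B-DKO2, and without parental replicate 2 it was 0.12 in MLL1-KO2. It was 0.17 without SAP30-KO1 replicate 2, 0.056 without SIN3A+SIN3B-DKO1 replicate 2, and 0.12 without MLL1-KO2 replicate 2 in the lines concerned. With the neighbours' median subtracted, HDAC7 no longer passed in SIN3A+SIN3B-DKO1 (-0.10, adjusted p = 0.23) or SIN3A+SIN3B-DKO2 (-0.11, adjusted p = 0.21). HDAC7 shares 30 exon bases with SLC48A1 on the opposite strand.

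HDAC6 RNA, of class IIb, rose in all 6 lines by less than 1.5-fold. HDAC6 (chrX:48659784-48683392, plus strand) measured 25 and 24.5 TPM in parental cells and between 27.3 and 34.8 TPM in the 12 edited libraries, so that the groups did not overlap. It was highest in SIN3A+SIN3B-DKO1, at 34.8 and 34.7 TPM (1.4-fold, log2 fold change of 0.48, standard error 0.06, adjusted p = 4.7e-05). The smallest rise was in MLL1-KO1 (27.3 and 28.5 TPM, 1.12-fold, 0.17, adjusted p = 0.027), which was lost without parental replicate 1 (adjusted p = 0.067), parental replicate 2 (0.11), or MLL1-KO1 replicate 2 (0.14). In the other 4 lines the log2 fold changes were between 0.28 and 0.35.

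HDAC11, the class IV gene, had the largest rise of the 10, and it was largest in the SAP30-KO lines. HDAC11 (chr3:13521224-13547924, plus strand) measured 11.1 and 9.47 TPM in parental cells, 23.8 and 21.4 TPM in SAP30-KO1, and 26.5 and 23.3 TPM in SAP30-KO2. It was at 13.5 and 12.2 TPM in SIN3A+SIN3B-DKO1 and at 11.8 and 9.66 TPM in SIN3A+SIN3B-DKO2, which overlapped parental. MLL1-KO1 had 14.2 and 13.7 TPM and MLL1-KO2 15.5 and 16 TPM. The SAP30-KO libraries were thus above all 10 others. HDAC11 was called in SAP30-KO1 (2.15-fold, log2 fold change of 1.10, standard error 0.11, adjusted p = 1.1e-05), SAP30-KO2 (2.36-fold, 1.24, adjusted p = 4.4e-06), and MLL1-KO2 (1.51-fold, 0.60, adjusted p = 0.00062). The call in MLL1-KO2 was lost with a change under 1.5-fold without parental replicate 2 (0.49) and without MLL1-KO2 replicate 2 (0.58), and with a pseudocount of 1 (0.57). HDAC11 passed in MLL1-KO1 (0.43, adjusted p = 0.0059) and SIN3A+SIN3B-DKO1 (0.31, adjusted p = 0.032), but not in SIN3A+SIN3B-DKO2 (0.06, 95% interval from -0.18 to 0.30). Without parental replicate 2 neither MLL1-KO1 (adjusted p = 0.06) nor SIN3A+SIN3B-DKO1 (adjusted p = 0.22) passed, and without its replicate 1 SIN3A+SIN3B-DKO1 did not pass (adjusted p = 0.18). With quantile normalization HDAC11 was called in MLL1-KO1 (0.61).
The HDAC11 promoter, from the same RefSeq table, is shown for this gene of the largest rise. Of the promoters printed here it held the most GC box matches (5), several of them sharing bases.
HDAC11 (chr3:13480056-13480305, plus strand, GRCh38.p14): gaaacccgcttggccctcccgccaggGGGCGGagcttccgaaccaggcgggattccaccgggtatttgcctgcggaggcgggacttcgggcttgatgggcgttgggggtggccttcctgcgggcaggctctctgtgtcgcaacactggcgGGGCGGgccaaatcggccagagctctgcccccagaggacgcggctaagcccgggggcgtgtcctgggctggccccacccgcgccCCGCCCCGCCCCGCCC

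Class I genes made up most of the summed TPM of the 10 genes in every library. The sums leave out HDAC10 and the NAD-dependent sirtuins. The 10 genes summed to 561 ± 2.41 TPM in parental cells (SD, n = 2), of which class I made up 79.1% and 80.2% in the 2 libraries. SAP30-KO1 had shares of 77.3% and 79%, and SAP30-KO2 of 77% and 77.4%. SIN3A+SIN3B-DKO1 was at 77.4% and 77.9%. In SIN3A+SIN3B-DKO2 it was 79.1% and 80.4%, which overlapped parental, and in MLL1-KO1 77.6% and 78%. It was lowest in MLL1-KO2, at 74.7% and 74.2%, below all other libraries. Class I summed to 447 ± 2.54 TPM in parental cells and to 392 ± 0.251 TPM in MLL1-KO2. Class II summed to 104 ± 3.82 and 119 ± 1.74 TPM in the same conditions, and class I over class II was 4.3 ± 0.183 and 3.3 ± 0.0505. In the SAP30-KO lines both sums were above parental, with 512 ± 8.34 TPM of class I and 121 ± 5.6 TPM of class II in SAP30-KO1. Without HDAC1, the other class I genes summed to between 226 and 264 TPM in all 14 libraries, a narrower span than that of HDAC1 alone, from 134 to 272 TPM. No test was made of these sums.

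**Figure D3:**
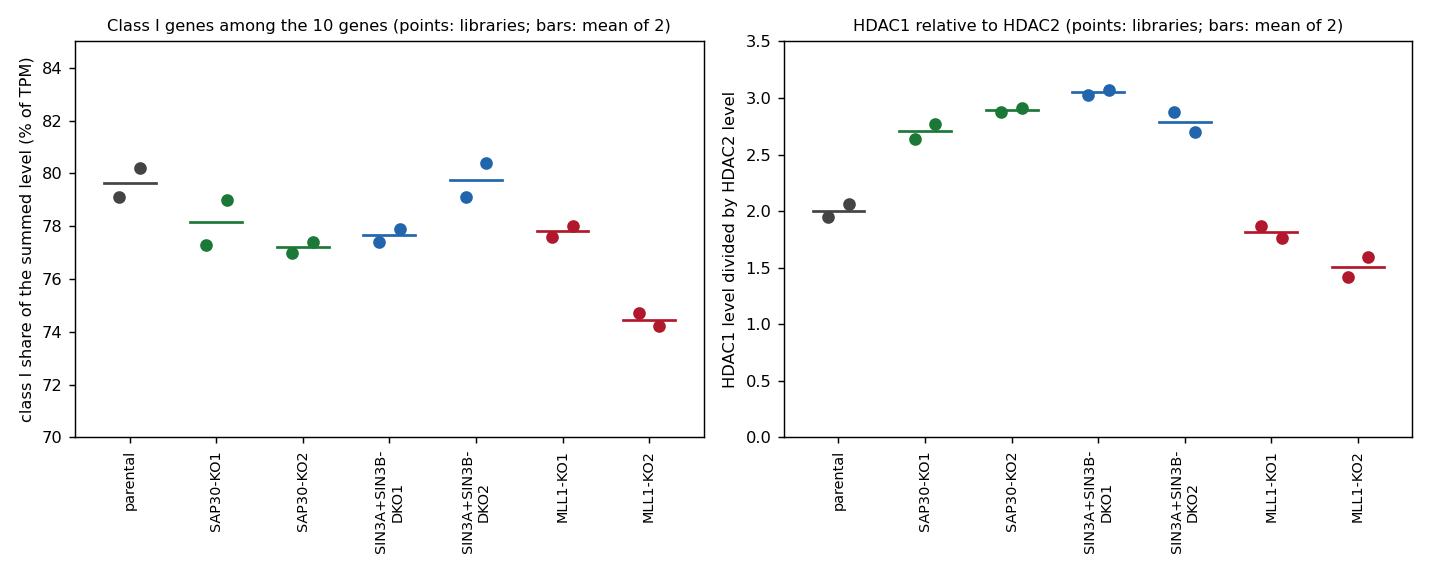
Left, class I share of the summed TPM of the 10 genes in percent, on an axis that begins at 70%; right, HDAC1 level divided by HDAC2 level, on an axis from 0. Points are libraries and bars the mean of 2; the class I share was lowest in MLL1-KO2 (74.7% and 74.2%), and the ratio was above parental in the SAP30-KO and SIN3A+SIN3B-DKO lines and below it in the MLL1-KO lines.

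Lines of 1 genotype were compared directly in the same fit. None of the 10 genes was called between SAP30-KO1 and SAP30-KO2, where 0.148% of all genes were, and none passed by limma without the fold minimum. Of all 13540 genes, 32 passed there as higher and 39 as lower. None was called between SIN3A+SIN3B-DKO1 and SIN3A+SIN3B-DKO2 either (2.23% of all genes), although HDAC5 (0.36, adjusted p = 0.02) and HDAC6 (0.20, adjusted p = 0.046) passed as higher in SIN3A+SIN3B-DKO1. HDAC5 no longer passed without SIN3A+SIN3B-DKO1 replicate 2 (adjusted p = 0.15) or SIN3A+SIN3B-DKO2 replicate 2 (0.14). HDAC6 lost its pass under most of the alternatives, with an adjusted p of 0.26 without SIN3A+SIN3B-DKO2 replicate 2. Between the MLL1-KO lines, 1 of the 10 was called, against 10.4% of all genes. This was HDAC4, higher in MLL1-KO1 than in MLL1-KO2 by 1.12 on the log2 scale (standard error 0.09, adjusted p = 3.4e-06). HDAC1 was also higher in MLL1-KO1 (0.25, adjusted p = 0.00017), and HDAC7 (-0.29, adjusted p = 0.0034) and HDAC9 (-0.28, adjusted p = 0.0031) were lower. HDAC6 was lower by a smaller amount (-0.16, adjusted p = 0.043) and lost its pass under most alternatives, with an adjusted p of 0.19 without MLL1-KO1 replicate 1.

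The genotypes were compared as the mean of both lines of each. Between SIN3A+SIN3B-DKO and SAP30-KO lines, 1 of the 10 genes was called against 7.47% of all genes. This was HDAC11, lower in the SIN3A+SIN3B-DKO lines (log2 difference of -0.99, standard error 0.08, adjusted p = 2e-06). Between MLL1-KO and SAP30-KO lines, 4 were called against 19.8% of all genes, all lower in the MLL1-KO lines. These were HDAC1 (-0.85, standard error 0.02, adjusted p = 1.9e-10), HDAC4 (-0.85, adjusted p = 4.1e-07), HDAC5 (-0.82, adjusted p = 3.2e-07), and HDAC11 (-0.66, adjusted p = 1.8e-05). Between MLL1-KO and SIN3A+SIN3B-DKO lines, 2 were called against 19.9% of all genes, HDAC1 (-0.75, adjusted p = 4.2e-10) and HDAC4 (-0.63, adjusted p = 4.8e-06), again lower in the MLL1-KO lines. HDAC5 (-0.54) was called there too without SIN3A+SIN3B-DKO2 replicate 2 (-0.59). The call of HDAC4 against the SIN3A+SIN3B-DKO lines was lost with a pseudocount of 1 (-0.58), quantile normalization (-0.48), or median ratio scaling (-0.54), and that of HDAC11 against the SAP30-KO lines with quantile normalization (-0.54) or median ratio scaling (-0.56). The HDAC4 differences averaged MLL1-KO1 and MLL1-KO2, which differed from each other.

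Positions of 18574 of the 19410 genes were known, and each deacetylase gene was set beside the 51 tested genes centred on it. Around HDAC4 the neighbours in MLL1-KO2 had a median log2 fold change of -0.84, with 41 of 51 below 0 and 31 called lower, while in the other 5 lines the median was between 0.01 and 0.03. With the neighbours' median subtracted in each library, HDAC4 in MLL1-KO2 was at -0.36 and no longer called. The neighbours of HDAC9 had medians from 0.39 to 0.45 in the SAP30-KO and SIN3A+SIN3B-DKO lines and of -0.33 and -0.41 in the MLL1-KO lines. HDAC9 less its neighbours was 0.02 and -0.05 in the SAP30-KO lines (adjusted p = 0.81 and 0.57), so that both passes were lost. It was 0.40 and 0.18 in the SIN3A+SIN3B-DKO lines, where it passed but was no longer called, and 0.78 and 1.02 in the MLL1-KO lines, where it was called. The neighbours of HDAC11 had medians from 0.21 to 0.33 in all 6 lines, and HDAC11 less its neighbours was still called in SAP30-KO1 (0.81) and SAP30-KO2 (0.97) but not in MLL1-KO2 (0.30). The passes of HDAC11 in MLL1-KO1 (0.12, adjusted p = 0.37) and SIN3A+SIN3B-DKO1 (0.07, adjusted p = 0.59) were lost. HDAC5 less its neighbours was 0.52 and 0.65 in the SAP30-KO lines, called in SAP30-KO2 alone, and 0.56 in SIN3A+SIN3B-DKO1, and its pass in SIN3A+SIN3B-DKO2 was lost (0.22, adjusted p = 0.051). In the MLL1-KO lines the neighbours of HDAC5 had a median of -0.34 in each, with 16 and 13 of 51 called lower, and HDAC5 less its neighbours passed as higher (0.22 and 0.27, adjusted p = 0.045 and 0.014). The neighbours of HDAC1 had medians within -0.05 and 0.05, and HDAC1 less its neighbours passed the test in all 6 lines in its original direction. Whether copies of these regions differ between the lines was not tested.

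**Figure D4:**
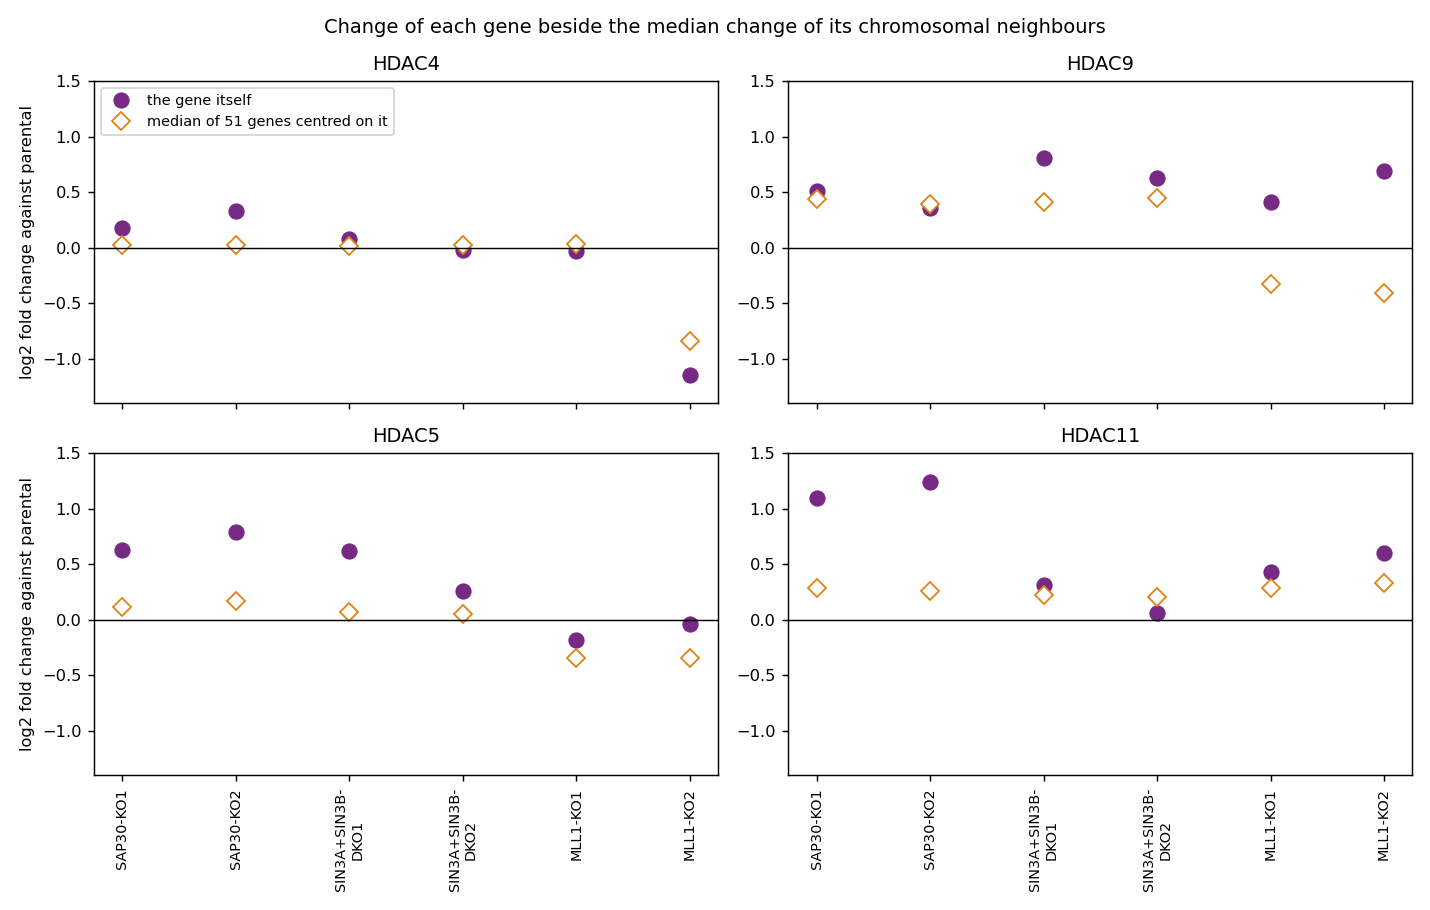
Log2 fold change against parental (vertical axis) of HDAC4, HDAC9, HDAC5, and HDAC11 (filled circles) in each of the 6 lines (horizontal axis), beside the median of the 51 tested genes centred on each (open diamonds). The neighbours of HDAC4 were at -0.84 in MLL1-KO2, and those of HDAC9 were on the opposite side of 0 from HDAC9 in both MLL1-KO lines.

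The genes most like HDAC1, HDAC2, and HDAC4 over the 7 condition means of log2(TPM + 0.5) were found by Pearson correlation, as a description without a test. For HDAC1 these were PDE1C, a phosphodiesterase gene (r = 0.997), BZW2 (0.995), and RARS2, a mitochondrial arginyl-tRNA synthetase gene (0.994). PDE1C went from a mean of 22.4 TPM in parental to 51 TPM in SAP30-KO2 and to 6.74 TPM in MLL1-KO2. PDE1C and BZW2 lie on chromosome 7, and BZW2 is among the 51 genes centred on HDAC9. The medians of those 51 genes moved in the same directions as HDAC1. They were from 0.39 to 0.45 in the SAP30-KO and SIN3A+SIN3B-DKO lines and -0.33 and -0.41 in the MLL1-KO lines. In all, 259 genes had an r of at least 0.95 with HDAC1, so a high r over 7 conditions was common. For HDAC2 they were NCKAP1, an actin regulator gene (0.995), PARP14 (0.981), and ACBD5 (0.981). HDAC4, the gene of the widest range of condition means, was most like MLPH (0.991), SCLY (0.985), and TRAF3IP1 (0.983). All 3 lie among the 51 genes centred on HDAC4 on chromosome 2, and MLPH went from 79.6 TPM in parental to 20.1 TPM in MLL1-KO2.

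Other genes of the acetylation pathway were taken from 10 lists, and counts are those against parental over the 6 lines. Of all genes tested, between 21.8% and 28.1% passed as higher and between 22.9% and 38.7% as lower in a line, and their median log2 fold change was between -0.09 and 0.03. Of 7 sirtuins, the NAD-dependent deacetylases, between 1 and 4 passed as higher and between 0 and 2 as lower, with a median between -0.06 and 0.26. SIRT4 was called higher in both SAP30-KO lines, from 0.69 and 1.06 TPM in parental to between 2.3 and 3.13 TPM (log2 fold changes of 1.10 and 1.24, adjusted p = 0.014 and 0.0071). Of 13 acetyltransferases, which add the groups that deacetylases remove, between 1 and 3 passed as higher and between 0 and 5 as lower (median between -0.12 and 0.01), and none was called the same way in both lines of a genotype. Of 11 acetyl-lysine readers tested, between 1 and 4 passed as higher and between 3 and 5 as lower (median between -0.12 and 0.03). BRD7, a bromodomain gene, was called lower in the 2 SAP30-KO lines (-0.64 and -0.75) and likewise after MLL1 editing (-0.76 and -0.73), from 94 and 96.4 TPM in parental to between 54 and 63.7 TPM.
Of 22 SIN3 complex genes other than the deacetylases, between 3 and 7 passed as higher and between 3 and 9 as lower, with a median between -0.10 and 0.03. Those called in both lines of a genotype were SAP30 itself in the SAP30-KO lines and SIN3B itself in the SIN3A+SIN3B-DKO lines. Of 12 NuRD genes, between 0 and 2 passed as higher and between 4 and 7 as lower (beside 22.9% to 38.7% of all genes), with a median between -0.14 and -0.04. CDK2AP1 was called lower in both SIN3A+SIN3B-DKO lines (-0.66 in each), from 110.0 and 99.9 TPM to between 62.6 and 70.2 TPM. Of 8 CoREST genes tested, between 1 and 3 passed as higher and between 1 and 3 as lower (median between -0.12 and 0.05). GSE1, a coiled-coil protein gene of the CoREST list, was called lower in all 6 lines, from 26.1 and 23.7 TPM in parental to between 7.25 and 16.1 TPM.
Of 6 NCoR/SMRT genes, between 0 and 1 passed as higher and between 3 and 4 as lower, with a median between -0.24 and -0.04. Beside this and the lists that follow, between 21.8% and 28.1% of all genes passed as higher and between 22.9% and 38.7% as lower. Of 3 MiDAC genes, between 1 and 2 passed as higher and between 0 and 1 as lower (median between -0.08 and 0.18). Of 4 MEF2 genes, between 0 and 2 passed as higher and between 0 and 2 as lower (median between -0.19 and 0.11). MEF2C was called lower in both MLL1-KO lines (-1.27 and -0.63), from 7.54 and 7.68 TPM to between 2.79 and 4.93 TPM. Of 7 14-3-3 genes, between 0 and 3 passed as higher and between 3 and 4 as lower (median between -0.14 and 0.12), and none was called.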

How the data were processed

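RNA-Seq of 14 libraries of MDA-MB-231 cells was analysed, 2 for each of 7 conditions. The authors deposited 1 table, which they named RPKM, in which each library sums to 1000000, so the deposited values were treated as TPM. The submitters' processing notes name the build hg19, FastQC 0.11.2, TopHat, and featureCounts. The annotation, strand setting, and treatment of reads with several matches are not given in the sources used here. Dividing by the smallest step of each gene gave whole reads for 18519 of 18519 genes above 0 (100.0%, within 0.02 reads), from 18415036 to 23162682 per library, and counting error is only part of the spread. Of the names in the table, 28 were date-like and 4 rows shared a name.

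Genes with at least 1 TPM in at least 2 libraries (13540) were fitted as log2(TPM + 0.5) with limma 3.58.1 in R 4.3.3, with 7 condition means, a trended prior, and two-sided tests, after the steps were tested on simulated data. Passing meant a Benjamini-Hochberg adjusted p under 0.05, and a call also required 1.5-fold. Alternatives were other pseudocounts (0.1 and 1), no filter, quantile normalization, median ratio scaling, limma voom on the whole reads, only the groups compared, a replicate block, each library left out, other fold minimums, and subtraction of the running median of 51 neighbours. Positions are from GENCODE 44 on GRCh37, the build of hg19, and promoters from RefSeq.

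The 10 deacetylase genes, the targeted genes, and 10 lists (sirtuins, acetyltransferases, acetyl-lysine readers, SIN3, NuRD, CoREST, NCoR/SMRT, and MiDAC complexes, MEF2 factors, and 14-3-3 proteins) were chosen with earlier results of these data known. Of the lists, genes called in the same direction in both lines of a genotype were named, at most 4 a list. Genes most alike were named for HDAC1, HDAC2, and the gene with the widest range of condition means. The exon bases shared with HDAC5, HDAC7, and HDAC8 were reported after values of these data were seen. Of the leukocyte markers, 1 is not reported here.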

Additional observations from a re-analysis of the deposited data

Results flagged for a closer look

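Differences between edited lines or genotypes, tested directly in the limma fit, were called for 8 pairs of a gene and a comparison. HDAC4 was higher in MLL1-KO1 than in MLL1-KO2 by 1.12 on the log2 scale (standard error 0.09, adjusted p = 3.4e-06), and both libraries of MLL1-KO2 were lower than both of MLL1-KO1. HDAC11 was lower in the SIN3A+SIN3B-DKO lines than in the SAP30-KO lines (-0.99, standard error 0.08, adjusted p = 2e-06), in 4 of 4 libraries.

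Against the SAP30-KO lines, the MLL1-KO lines were lower in HDAC1 (-0.85, adjusted p = 1.9e-10), HDAC4 (-0.85, adjusted p = 4.1e-07), HDAC5 (-0.82, adjusted p = 3.2e-07), and HDAC11 (-0.66, adjusted p = 1.8e-05). Against the SIN3A+SIN3B-DKO lines, they were lower in HDAC1 (-0.75, adjusted p = 4.2e-10) and HDAC4 (-0.63, adjusted p = 4.8e-06). Both HDAC4 differences averaged MLL1-KO1, at -0.03 against parental, and MLL1-KO2, at -1.15. With the median of the neighbouring genes subtracted, HDAC4 was no longer called in any of its 3 comparisons (0.32, -0.41, and -0.19), nor was HDAC5 (-0.34). HDAC1 and HDAC11 were still called with the neighbours subtracted (-0.77 and -0.70 for HDAC1, -0.95 and -0.68 for HDAC11).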

How the results depend on the processing

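Of 89 log2 differences of the 10 genes examined under 2047 alternative values, 68 passed the test, and 41 of these passed under every alternative. The count rises to 46 when the subtraction of neighbouring genes is set aside. With the neighbours subtracted, 1 gene was called in SAP30-KO1, 0 in both SIN3A+SIN3B-DKO lines, 1 in MLL1-KO2, and 0 between the MLL1-KO lines, while in MLL1-KO1, where none had been, 1 was (HDAC9). Of all 13112 genes then tested, 780 were called lower and 691 higher in SAP30-KO1. In the SIN3A+SIN3B-DKO lines 932 and 797, and 912 and 552, were. In the MLL1-KO lines 1464 and 961, and 1474 and 1289, were, and 646 and 397 between these lines. With at least 2-fold, 1 gene was called in each SAP30-KO line and in MLL1-KO2, and 0 in both SIN3A+SIN3B-DKO lines and between any genotypes. With no fold minimum, 6, 6, 7, 6, 6, and 8 genes passed in the 6 lines in the order of the report, 2 between the SIN3A+SIN3B-DKO lines, 5 between the MLL1-KO lines, and 6, 8, and 8 between genotypes. Of all 13540 genes, 908 passed as higher and 785 as lower between the SIN3A+SIN3B-DKO lines, and 2148 and 3546 between the MLL1-KO lines. Between genotypes, 3006 and 3578, 3235 and 5950, and 3404 and 5781 did, in the same order. Quantile normalization gave 2 called genes in MLL1-KO1, where 1545 of all 13540 genes were called lower and 1451 higher. It gave class I shares of 77.5% in SAP30-KO2 and 76.9% in MLL1-KO1. Between MLL1-KO and SIN3A+SIN3B-DKO lines, 1 gene was called with a pseudocount of 1, quantile normalization, or median ratio scaling. The causes were not tested.

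With single libraries left out, calls ranged from 1 to 2 in SAP30-KO1 (1 without parental replicate 2) and in SIN3A+SIN3B-DKO1 (1 without parental replicate 2 or its own replicate 2). They ranged from 2 to 4 in MLL1-KO2 and from 2 to 3 between MLL1-KO and SIN3A+SIN3B-DKO lines. They stayed at 2 in SAP30-KO2, 1 in SIN3A+SIN3B-DKO2, 0 in MLL1-KO1, 0 between the SAP30-KO lines and between the SIN3A+SIN3B-DKO lines, 1 between the MLL1-KO lines, 1 between SIN3A+SIN3B-DKO and SAP30-KO lines, and 4 between MLL1-KO and SAP30-KO lines. The class I share ranged as its libraries did, 79.1 to 80.2% in parental, 77.3 to 79% and 77 to 77.4% in the SAP30-KO lines, 77.4 to 77.9% and 79.1 to 80.4% in the SIN3A+SIN3B-DKO lines, and 77.6 to 78% and 74.2 to 74.7% in the MLL1-KO lines.

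Signs turned for differences from -0.18 to 0.36, most of which had not passed. With the neighbours subtracted, HDAC8 in 5 lines, HDAC3 in the SAP30-KO lines, HDAC5 in the MLL1-KO lines, HDAC2 in MLL1-KO2, and HDAC3 and HDAC9 between MLL1-KO and SIN3A+SIN3B-DKO lines passed on the other side of 0. With neighbours subtracted, HDAC2 became 0.04 and 0.03 in the SAP30-KO lines, 0.10 and 0.13 in the MLL1-KO lines, and 0.08 between MLL1-KO and SAP30-KO lines. HDAC3 became -0.20 and -0.11 in the SAP30-KO lines, -0.07 in MLL1-KO2, and -0.16 between MLL1-KO and SIN3A+SIN3B-DKO lines. HDAC8 became -0.20, -0.26, -0.23, -0.26, -0.08, and -0.21 in the 6 lines. HDAC9 became -0.05 in SAP30-KO2 and 0.61 between MLL1-KO and SIN3A+SIN3B-DKO lines. HDAC11 became -0.20 in SIN3A+SIN3B-DKO2, HDAC5 0.22 and 0.27 in the MLL1-KO lines, and HDAC7 0.04 in MLL1-KO1. With median ratio scaling, HDAC3 was -0.03 in SAP30-KO1, HDAC4 0.06 in MLL1-KO1, HDAC5 0.01 in MLL1-KO2, and HDAC2 0.02 between MLL1-KO and SAP30-KO lines. With quantile normalization, HDAC3 was -0.00 in SIN3A+SIN3B-DKO1, HDAC4 0.01 in SIN3A+SIN3B-DKO2 and 0.18 in MLL1-KO1, and HDAC5 0.02 in MLL1-KO2. With voom, HDAC4 was 0.00 in SIN3A+SIN3B-DKO2 and 0.02 in MLL1-KO1. Without parental replicate 2, HDAC3 was -0.03 in SAP30-KO1 and -0.02 in SIN3A+SIN3B-DKO1, and HDAC11 -0.05 in SIN3A+SIN3B-DKO2. Without parental replicate 1, HDAC5 was 0.05 in MLL1-KO2 (-0.14 without parental replicate 2). Without SIN3A+SIN3B-DKO1 replicate 2, HDAC3 was -0.06 there, without SIN3A+SIN3B-DKO2 replicate 1 HDAC3 was -0.02, HDAC4 0.02, and HDAC11 -0.08 there (0.20 without replicate 2), and without MLL1-KO1 replicate 2 HDAC8 was -0.02 there (0.14 without replicate 1).

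Libraries with the same number share only that number. Over 21 pairs of conditions their deviations correlated between -0.073 and 0.082 (mean 0.015). With the replicate block, SAP30-KO1 had 1055 genes called higher and 1064 lower (1056 and 1064 with no block), and the counts of called deacetylase genes stayed at 2, 2, 2, 1, 0, and 3 in the 6 lines. HDAC6 no longer passed under the block between the SIN3A+SIN3B-DKO lines (adjusted p = 0.056) or between the MLL1-KO lines (adjusted p = 0.051), nor HDAC2 between MLL1-KO and SAP30-KO lines (adjusted p = 0.057).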
